A study of Homo sapiens with 3 samples.

Results

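MAX is the obligate dimerization partner of MYC and of the MXD, MNT and MGA repressors, and its dimers bind the canonical E-box CACGTG through basic helix-loop-helix leucine zipper domains. BMAL1 binds the same hexamer as a dimer with CLOCK at circadian promoters. The regions described here were MAX peaks at promoters of protein-coding genes, with a canonical E-box near the summit and no overlapping BMAL1 peak listed. They were selected on measured values, namely the position of MAX peaks, their summits and the lack of a shared base with any BMAL1 peak. A MAX peak was a member when at least 1 bp lay within 300 bp of a transcription start site (TSS) annotated for a protein-coding gene, whichever transcript it belongs to (GENCODE on hg19), and a whole CACGTG lay within 100 bp of its summit. Of 13650 MAX peaks, 13013 shared no base with any of the 756 BMAL1 peaks, 6229 of these were at coding promoters, and 1124 of those (18.04%, Wilson 95% interval 17.1% to 19.0%) had the E-box and formed the members, or 8.23% of all MAX peaks.

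Chromatin came from MDA-MB-231, an established human breast adenocarcinoma line grown as adherent cells, with no treatment or synchronization given in the labels. It was cross-linked for 10 min in 1% formaldehyde and precipitated with 4 µg of an anti-MAX or an anti-BMAL1 antibody, and the study used these peaks to ask whether MAX and BMAL1 occupy the same regulatory regions. The data comprised 1 MAX library (11545865 tags after filtering), 1 BMAL1 library (13866783 tags) and 1 input library (29308882 tags) that served as the control for both. There were no replicates, so all values below describe single libraries, no test between conditions was made, and the intervals reflect counting or the spread over peaks and not the error between cultures. An anti-MAX antibody does not tell MYC-MAX from MXD-MAX, MNT-MAX or MGA-MAX dimers. The absence of a BMAL1 peak means only that none passed the peak caller's threshold at this depth.

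The hexamer is a palindrome, so each E-box is described by the base before it on either strand, and classes are written in the alphabetically first of the 2 equivalent readings. MYC-MAX and BMAL1-CLOCK dimers differ in the flanking bases they tolerate, and TFEB and its relatives, which control lysosomal genes, are known for the element TCACGTGA. The 10 members with the highest fold enrichment are shown first, because they carry the strongest MAX signal among members. Each line gives 12 bases on either side of the E-box nearest the summit, 5′ to 3′ on the plus strand of hg19, with the E-box in capitals.
CDIP1 (chr16:4588903-4588932): gctggggctgagCACGTGggatggtcgggg
QTRT1 (chr19:10812058-10812087): ggatcgcgtggtCACGTGacagcggccaac
CENPF (chr1:214776333-214776362): cattagcaaaagCACGTGgtctccgtctcc
WEE1 (chr11:9594384-9594413): ccaacgcatgccCACGTGctggcgaacaaa
ANKRD37 / LRP2BP (chr4:186317821-186317850): ggcgccgggctcCACGTGccagtgtttgtg
FAM118B / RPUSD4 (chr11:126081552-126081581): gcgagccaagacCACGTGgagaagggcgac
WIPI1 (chr17:66453976-66454005): aggcagcaggccCACGTGgcggtgttttca
STK25 (chr2:242448231-242448260): gggcgggcggggCACGTGgtcgttgtcgcg
ZFYVE27 (chr10:99496690-99496719): agggtcgccaagCACGTGcttccaagggtc
UNG (chr12:109535733-109535762): ccaaatagcctcCACGTGttcaaaatagcc

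In 5 of these 10 the flank was of the class CCACGTGC, in 2 it was CCACGTGG, and only QTRT1 had T before the hexamer on both strands (TCACGTGA). CDIP1, a p53-responsive proapoptotic gene, had the highest fold enrichment over input among members at 45.4 (pileup of 59 extended fragments at the summit), above 99.95% of MAX peaks. Fold enrichment divides the pileup at the summit by a background, which the peak caller takes from the input around the peak or from a floor common to the whole list, whichever is higher. The background was at this lowest value of 1.28 fragments in 215 members (19.1%). Its E-box lay 19.5 bp from the summit, counted from the centre of the hexamer, and at -88.5 bp from the nearest coding TSS (negative values are upstream). QTRT1, the catalytic subunit of the enzyme that places queuine in tRNA, followed with 42.1 (pileup 83), and its E-box lay at -33.5 bp from the TSS.

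CENPF, a kinetochore protein, had a fold enrichment of 41.6 (pileup 57) with the E-box at -180.5 bp from the TSS. WEE1, the kinase that inhibits CDK1, had 39.6 (pileup 78), and its E-box lay at -818.5 bp from the nearest coding TSS, in a peak of 1070 bp that reached into the promoter window. The peak between FAM118B and the mitochondrial pseudouridine synthase gene RPUSD4 and the peak between ANKRD37 and LRP2BP both had a fold enrichment of 39.5 (pileup 56).

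Among the remaining 4, WIPI1, which binds phosphoinositides on forming autophagosomes, had 38.0 (pileup 66). The kinase gene STK25 had 37.1 (pileup 53), and ZFYVE27, which encodes the endosomal protein protrudin, had 37.0 (pileup 70). UNG, the uracil-DNA glycosylase that starts base excision repair of uracil, had 36.4 (pileup 61) with the E-box 54.5 bp from the summit, the farthest of the 10. In the other 9 the E-box centre lay within 25 bp of the summit.

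MAX signal at the members was above that of the same kind of promoter without the E-box. Their fold enrichment ran from 3.81 to 45.4 with a median of 12.3 (quartiles 9.78 and 16.9, 95% interval of the median 11.99 to 12.7), on a median pileup of 23 fragments. The 5105 MAX-only coding promoters without CACGTG at the summit had a median of 9.99 (interval 9.79 to 10.1) and a pileup of 18. The 1202 MAX-only distal peaks with the E-box, which had no TSS of any gene within 300 bp, had a median of 10.2 (interval 10.1 to 10.4) and a pileup of 19. The ratio of the medians was thus 1.24 against promoters without the E-box and 1.22 against distal E-boxes.

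The 195 coding promoters with an E-box that shared bases with a BMAL1 peak had a higher median of 17.7 (interval 16.4 to 18.9, pileup 33). The members' median was 0.698 of that value. A fold enrichment of 15 or more was reached by 380 of 1124 members (33.8%, interval 31.1% to 36.6%), against 12.3% of all MAX peaks, 11.4% of promoters without the E-box, 13.3% of distal E-boxes and 65.1% of the BMAL1-shared promoters. All members were picked from the MAX list, so these levels are a description of how the sets were placed within it. The distributions overlapped widely, and 25.1% of the MAX-only promoters without an E-box lay above the median of the members.

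**Figure D1:**
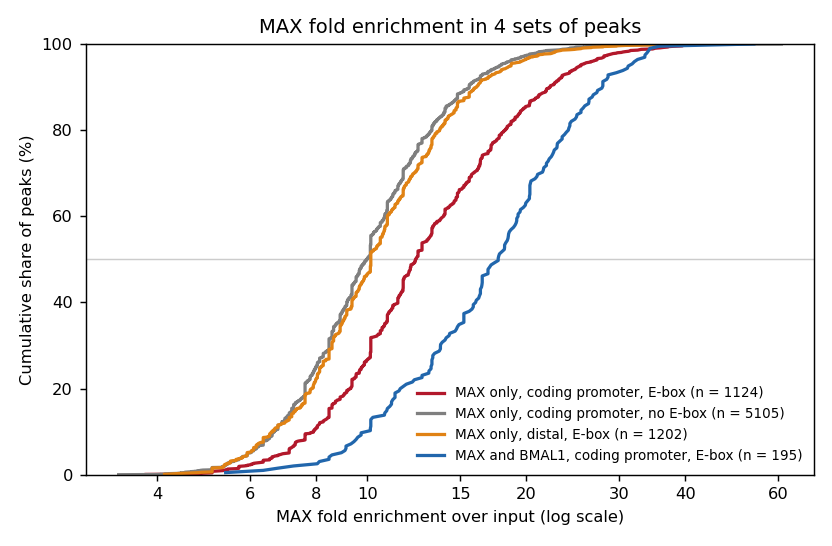
Cumulative share of peaks (%) against MAX fold enrichment over input (log scale) for the members (n = 1124), MAX-only coding promoters without E-box (n = 5105), MAX-only distal peaks with E-box (n = 1202) and coding promoters with E-box and a BMAL1 peak (n = 195). The curve of the members crosses 50% at 12.3, between the 2 other MAX-only sets (9.99 and 10.2) and the BMAL1-shared promoters (17.7).

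The local background was alike where the promoter sets were compared. It had a median of 1.77 fragments at members and 1.77 at promoters without the E-box, and 1.89 at distal E-boxes. The median length was 568 bp for members, 473 bp for promoters without the E-box and 426.5 bp for distal E-boxes. The 201 bp summit windows of members had a GC content of 64.2% and an observed over expected CpG ratio of 0.788, close to promoters without the E-box (65.2% and 0.827) and above distal E-boxes (54.2% and 0.369). Within the members, fold enrichment had a Spearman correlation of 0.475 with peak length, -0.324 with the background, 0.198 with the CpG ratio and -0.116 with the distance from summit to E-box. These are correlations over 1124 peaks of 1 library, and the first shares its reads with the fold enrichment and the background is its divisor.

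The base before the E-box varied with the level of MAX, a grouping chosen after the values were seen. The nearest E-box had no T before it on either strand in 804 members (71.5%), whose median fold enrichment was 13.2 (interval 12.7 to 13.9). It had T before it on 1 strand in 253 members, with a median of 10.9 (interval 10.2 to 11.6), and on both strands in 67, with a median of 10.6 (interval 9.46 to 12.5). By class, the highest medians were at CCACGTGG (14.6, interval 13.2 to 16.2, n = 216) and GCACGTGC (14.4, interval 12.1 to 16.4, n = 66) and at CCACGTGC (14.0, interval 12.7 to 15.2, n = 247). The lowest were at ACACGTGA (10.1, interval 9.35 to 11.4, n = 44) and TCACGTGA (10.6, n = 67) and at CCACGTGA (10.7, interval 10.1 to 11.7, n = 137).

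The 3 upper lines below show members with CCACGTGG and the 3 lower ones members with TCACGTGA, to set both kinds of flank side by side, with 12 bases on either side on the plus strand of hg19. They were not picked to stand for the level of their class, which ranged widely: members with TCACGTGA reached 42.1 at QTRT1 and 19.0 at ATP6V0D1, and members with CCACGTGG were as low as 5.71 at ATG5 and 6.35 at PSMB10.
PWP1 (chr12:108079429-108079458): cccagaccagccCACGTGgattcctcgccc
MXD1 (chr2:70141405-70141434): ccccgcagcagcCACGTGgcgcctgcccta
HK2 (chr2:75062091-75062120): gattgctgcgccCACGTGggagggagcccc
MCM2 / TPRA1 (chr3:127317231-127317260): gctttggtgggtCACGTGaaccacttttcg
KAT5 (chr11:65479476-65479505): cccggtgggcgtCACGTGacggactcagta
DVL2 (chr17:7137843-7137872): ctctcctcatgtCACGTGacttaaaggcag

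PWP1, a ribosomal chromatin and pre-rRNA factor, had a fold enrichment of 29.0. MXD1, a MAX partner that represses transcription, had 25.1, and HK2, the hexokinase that starts glycolysis, had 17.6. MCM2, a subunit of the replicative helicase, had 12.8 with TCACGTGA. KAT5, a histone acetyltransferase, and DVL2, a WNT signalling adaptor, both had 10.2 with 3 E-boxes in the window and TCACGTGA nearest the summit.

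The difference by flank had the same direction when members were split into 4 nearly equal groups by CpG ratio. The medians without and with T before the hexamer were 11.2 and 10.2 in the lowest group, where their intervals overlapped (10.7 to 11.8 and 9.87 to 11.4). They were 13.6 and 9.77 in the second group, 14.8 and 10.8 in the third and 15.9 and 11.9 in the highest. It had the same direction in 4 such groups by peak length, from 10.1 and 9.35 in the shortest to 16.9 and 12.7 in the longest, with intervals that overlapped or touched in the other 3 and not in the longest. With the E-box within 25 bp of the summit the medians were 14.2 (n = 318) and 10.8 (n = 102), and farther out they were 12.7 (n = 486) and 10.9 (n = 218). The pileup had medians of 24 fragments without and 20 with T before the hexamer, so the difference corresponds to few fragments at a single peak.

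**Figure D2:**
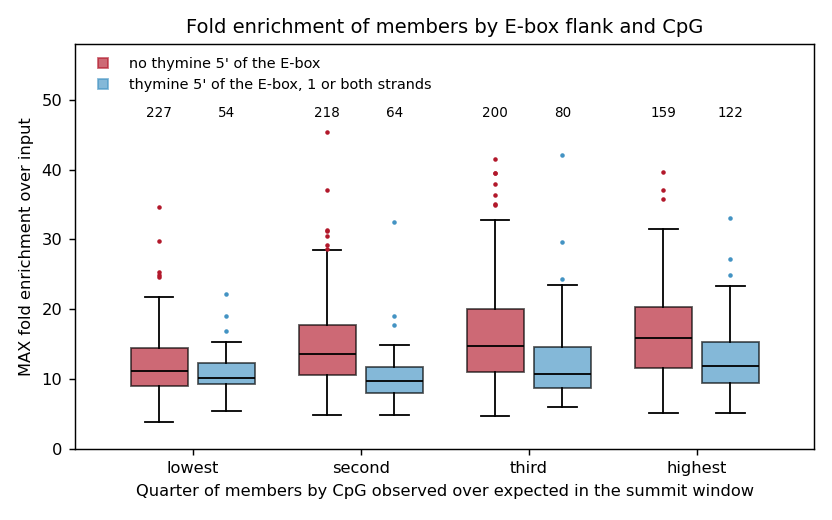
MAX fold enrichment over input of the 1124 members in 4 groups by CpG observed over expected in the summit window, for E-boxes without thymine 5′ of the hexamer and with thymine on 1 or both strands. Boxes give quartiles with the median as a line, whiskers reach the last value within 1.5 box lengths, dots are the values beyond them and numbers are members per box. The median without thymine is the higher one in each group, from 11.2 against 10.2 in the lowest to 15.9 against 11.9 in the highest.

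The flanks differed between the members and both other E-box sets. T before the nearest E-box was found in 28.5% of members (interval 25.9% to 31.2%), 17.1% of distal E-boxes (15.1% to 19.4%) and 49.2% of BMAL1-shared promoters (42.3% to 56.2%). Over all E-boxes in the windows, CCACGTGG made up 18.7% of the 1197 in members, 21.3% of the 1255 in distal peaks and 6.72% of the 253 in BMAL1-shared promoters. CCACGTGA showed the opposite order between promoter sets, with 12.7% in members and 22.5% in BMAL1-shared promoters, and made up 7.33% at distal peaks. TCACGTGA made up 6.93% of E-boxes in members (interval 5.63% to 8.52%), 1.99% at distal peaks (1.35% to 2.92%) and 5.53% in BMAL1-shared promoters (3.33% to 9.07%). Of all 8247 CACGTG hexamers within 300 bp of a coding TSS, bound or not, 7.01% were TCACGTGA (6.48% to 7.58%), near the share in members. CCACGTGG made up 12.3% of these hexamers and CCACGTGA 15.5%. Within BMAL1-shared promoters MAX fold enrichment was also lower with T before the hexamer, with medians of 15.2 against 20.0, and at distal E-boxes the medians were 9.65 and 10.2.

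Promoter E-boxes inside and outside MAX peaks give the frame for these shares. Within 300 bp of a coding TSS the genome held 8247 CACGTG hexamers, of which 1748 (21.2%, interval 20.3% to 22.1%) lay in a MAX peak and 914 (11.1%, interval 10.4% to 11.8%) lay within 100 bp of the summit of a MAX-only peak. The last share was 16.7% for CCACGTGG (interval 14.5% to 19.1%), 13.5% for ACACGTGG, 13.3% for TCACGTGA and 13.2% for CCACGTGC, and it was 5.56% for ACACGTGT (interval 3.62% to 8.43%) and 6.05% for ACACGTGA. The order differed for any MAX peak, BMAL1-shared or with the summit farther away, where the share was highest for TCACGTGA (31.1%, interval 27.5% to 35.03%) and was 24.7% for CCACGTGG (interval 22.1% to 27.4%). Where the CpG ratio around the hexamer was 0.6 or more, 748 of 3553 (21.1%) were at a MAX-only summit, against 166 of 4694 (3.54%) where it was lower. In the CpG-rich group, 23.7% of E-boxes without T before the hexamer (interval 21.9% to 25.6%) and 17.6% of those with it (interval 15.8% to 19.6%) were at a MAX-only summit. The order was the reverse for summits shared with BMAL1, at 3.92% (interval 3.16% to 4.86%) and 6.50% (interval 5.37% to 7.84%), and the shares in any MAX peak were 39.7% and 42.2%.

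Most members had 1 E-box at the summit. There were 1062 members with 1 hexamer in the window, 52 with 2, 9 with 3 and 1 with 4, so that 62 (5.52%, interval 4.33% to 7.01%) had 2 or more. At distal E-boxes the share was 4.08% (interval 3.10% to 5.35%), and at BMAL1-shared promoters it was 23.6% (interval 18.2% to 30.0%). The median fold enrichment was 12.3 with 1 hexamer, 14.6 with 2 (interval 12.04 to 16.5) and 15.5 with 3 or 4 (interval 10.2 to 17.9, n = 10). Neighbouring hexamers in the 62 windows started a median of 46 bp apart (quartiles 30 and 77), and 32 bp apart (quartiles 24.2 and 70.2) at BMAL1-shared promoters. Of all members, 134 (11.9%) had more E-boxes in the peak outside the window, and some of these were among the 62.

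BAX, the proapoptotic pore-forming protein, was the member with 4 hexamers, and its fold enrichment was 15.3 (pileup 21). The stretches that hold 3 hexamers in the promoters of INO80, ENO1 and DVL2 are shown because they touch no annotated exon, with 6 bases at each end, on the plus strand of hg19 and with all E-boxes in capitals.
INO80 (chr15:41407828-41407905): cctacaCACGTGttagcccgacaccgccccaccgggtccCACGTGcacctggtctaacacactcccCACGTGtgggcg
ENO1 (chr1:8938380-8938523): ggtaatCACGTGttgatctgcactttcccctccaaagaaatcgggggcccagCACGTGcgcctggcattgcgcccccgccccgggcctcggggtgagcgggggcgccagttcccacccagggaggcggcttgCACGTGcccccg
DVL2 (chr17:7137849-7137932): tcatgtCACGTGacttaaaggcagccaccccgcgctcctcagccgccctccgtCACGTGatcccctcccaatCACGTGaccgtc

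INO80, an ATPase that remodels chromatin, had a fold enrichment of 17.9 (pileup 23), and ENO1, the glycolytic enolase, had 15.6 (pileup 20). In DVL2 all 3 hexamers were of the class TCACGTGA and the fold enrichment was 10.2 (pileup 32). The other 6 members with 3 hexamers were FAM118B / RPUSD4, COPS7A (17.8), APEX1 / OSGEP (16.2), UBE2B with CDKL3 (13.2), WASHC2C (11.3) and KAT5 (10.2). APEX1 encodes the abasic site endonuclease of base excision repair.

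The rule limits the distance of the E-box from the summit and of the peak from a TSS, so the positions below describe where the E-box lay within those limits. The centre of the nearest hexamer was within 25 bp of the summit in 420 members (37.4%, interval 34.6% to 40.2%), where an even spread over the window would place 25.5%, and the share was 37.8% at distal E-boxes and 43.1% at BMAL1-shared promoters. Fold enrichment had a median of 13.2 (interval 11.7 to 14.1) with the E-box under 10 bp from the summit and of 11.4 (interval 10.9 to 11.9) from 75 to 100 bp. Relative to the nearest coding TSS, the E-box was at a median of -25 bp (quartiles -148 and 62.5, negative values upstream). It was within 100 bp of the TSS in 519 members (46.2%), within 300 bp in 859 (76.4%) and in the 50 bp directly upstream in 239 (21.3%). In 423 members (37.6%, interval 34.9% to 40.5%) it lay downstream of the TSS.

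By annotation, 347 E-boxes (30.9%) lay outside coding genes, 358 (31.9%) in introns, 337 (30.0%) in exons outside the coding sequence and 82 (7.30%) in coding sequence, and the median fold enrichment of these 4 groups lay between 12.03 and 12.5. Members with the E-box 300 to 100 bp upstream of the TSS had a median of 13.2 (interval 12.4 to 14.4), and those over 300 bp upstream had 11.3 (interval 10.2 to 12.2). Coding TSSs on both strands were found within 300 bp of 132 members (11.7%, interval 9.99% to 13.8%), against 14.1% of promoters without the E-box. These 132 had a median fold enrichment of 14.7 (interval 13.2 to 16.5), and the other 992 had 12.1 (interval 11.7 to 12.5). Peak length differed between these groups, at 698.5 bp (median) for the 132 and 558.5 bp for the 992. Because the 300 bp are counted from the peak, a long peak can reach more TSSs. Whether fold enrichment differs at equal peak length was not tested.

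**Figure D3:**
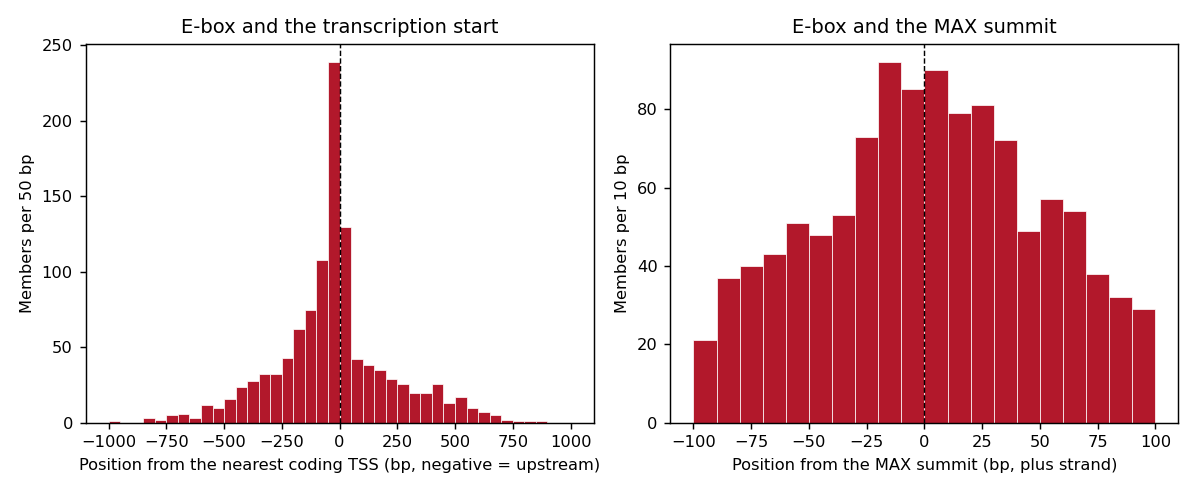
Number of members by position of the E-box nearest the summit, from the nearest coding TSS in bins of 50 bp (left, negative values upstream in the direction of transcription) and from the MAX summit in bins of 10 bp (right, plus strand). The highest bar on the left is the 50 bp directly upstream of the TSS with 239 members, and the right panel is highest around the summit, with 420 members within 25 bp.

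The GC box, CCAAT and the near E-box CACGCG were less frequent at members than at MAX-only promoters without the E-box. Each motif was searched on both strands of the 201 bp summit window. These windows were not equally close to the TSS. The summit lay within 300 bp of a coding TSS in 75.8% of members (interval 73.2% to 78.2%) and 85.8% of promoters without the E-box (interval 84.8% to 86.8%). The motif shares were not adjusted for this. GGGCGG, the GC box bound by SP1, was found in 45.5% of members (interval 42.6% to 48.4%) and 53.3% of promoters without the E-box (interval 51.9% to 54.6%). The same length around the canonical TSS held it in 53.8% of 19812 coding genes. CCAAT, bound by NF-Y, was found in 20.3% of members and 24.1% of promoters without the E-box, against 25.2% around all TSSs. The near E-box CACGCG was found in 14.6% of members and 20.3% of promoters without the E-box, against 10.8% around all TSSs, and CACGTT in 5.52% and 6.68%, against 3.21%. TATAAA was found in 1.78% of members and 1.96% of promoters without the E-box, against 6.62% around all TSSs. The windows around all TSSs were centred on the TSS, and those of both MAX-only sets on summits. Whether this placement accounts for differences from the share around all TSSs was not tested. CACGTG itself was in the window of 5.69% of all TSSs and CCACGTGG in 0.581%.

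When the members were divided by fold enrichment into 4 groups of 281, the composition of the E-box changed along them. This division restates, in the same peaks, the differences by flank and by TSS strand given above. The lowest group covered 3.81 to 9.76 and the highest 16.9 to 45.4. T before the nearest hexamer was found in 40.6% of the lowest group (interval 34.99% to 46.4%), 32.4% and 28.5% of the middle groups and 12.5% of the highest (interval 9.09% to 16.8%). CCACGTGG nearest the summit was found in 12.8% (interval 9.40% to 17.2%), 14.2%, 21.4% and 28.5% (interval 23.5% to 34.01%). Coding TSSs on both strands were found in 8.19% of the lowest group and 18.5% of the highest (interval 14.4% to 23.5%). The median length was 431 bp in the lowest and 731 bp in the highest group, and the background 2.24 and 1.58.

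The members were at TSSs of 1271 protein-coding genes, which is 6.33% of the 20090 examined, and 33.9% of these had any MAX peak at a TSS. There was 1 coding gene at 957 members, 2 at 156 and 3 at 11, and 31 genes had 2 members. Ribosome biogenesis, the best known program of MYC and MAX, was the most frequent among the larger lists. Of 133 ribosome biogenesis and nucleolar genes, 51 (38.3%, interval 30.5% to 46.8%) had a member and 119 (89.5%) had any MAX peak. UTP20, a component of the small subunit processome, had a fold enrichment of 32.5 (pileup 73). LTV1, needed for export of the small subunit, had 31.5 (pileup 48), and PWP1 had 29.0 (pileup 48). Over the 51 genes the median was 18.9 (range 7.90 to 32.5) and 36 (70.6%) reached 15, against 12.7 and 36.1% over all genes with a member.

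Among genes with a MAX peak, members were less frequent at the structural proteins of the ribosome than at its assembly factors. Any MAX peak was found at 73 of 79 cytosolic ribosomal protein genes (92.4%), but a member at 15 (19.0%, interval 11.9% to 29.0%), and 4 of the 15 reached a fold enrichment of 15. Among these, RPL22 had 21.8 and RPL19 had 15.6. Members were 20.5% of the cytosolic ribosomal protein genes with a MAX peak (interval 12.9% to 31.2%) and 42.9% of the ribosome biogenesis genes with one (interval 34.3% to 51.8%), against 18.7% of all coding genes with one. Mitochondrial ribosomal proteins had 6 of 79 (7.59%, interval 3.53% to 15.6%), led by MRPL3 with 17.2, which is near the share of all coding genes. Of the other factors of translation, 13 of 54 initiation and elongation factors (24.1%, interval 14.6% to 37.0%) had a member, as had 4 of 38 aminoacyl-tRNA synthetases (10.5%, interval 4.17% to 24.1%). Members were 31.7% of these initiation and elongation factors with any MAX peak (interval 19.6% to 47.0%). They were 12.1% of such synthetases (interval 4.82% to 27.3%) and 11.1% of such mitochondrial ribosomal protein genes (interval 5.19% to 22.2%).

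Among the translation factors, EEF1B2, a subunit of the elongation factor exchange complex, had 30.8 in a peak shared with the complex I gene NDUFS1. EIF3B, a scaffold of initiation factor 3, had 29.6, and EIF4A1, the initiation helicase, had 24.0. Among the synthetases, FARSB had 28.0, NARS2 had 23.03 and IARS1 had 17.8. The RNA polymerase subunits had 7 of 33 (21.2%, interval 10.7% to 37.7%), of which POLR3E and POLR3G of RNA polymerase III had 28.1 and 21.0 and POLR1B of RNA polymerase I had 18.7. Members were 30.4% of the polymerase subunits with any MAX peak (interval 15.6% to 50.9%).

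**Figure D4:**
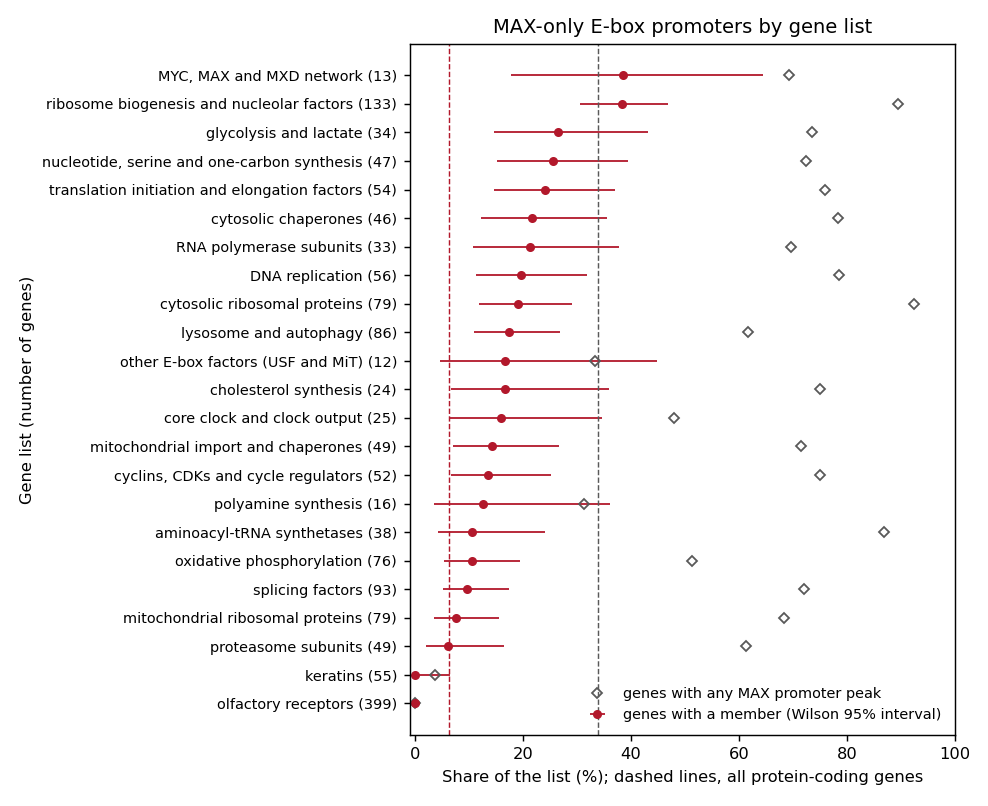
Share of each of 23 gene lists (%) with a member at a TSS (filled points, bars are Wilson 95% intervals for counting error) and with any MAX peak at a TSS (open diamonds), with the number of genes in brackets. Dashed lines mark all protein-coding genes (6.33% and 33.9%). The ribosome biogenesis list lies at 38.3% and 89.5%, while olfactory receptors lie at 0 for both.

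Among the metabolic lists given here, the share of genes with a member was highest in glycolysis and nucleotide synthesis, with intervals that overlapped the others. Nucleotide, serine and one-carbon synthesis had 12 of 47 (25.5%, interval 15.3% to 39.5%), and glycolysis and lactate 9 of 34 (26.5%, interval 14.6% to 43.1%). The bidirectional promoter of PPAT and PAICS, which encode enzymes of purine synthesis, had a fold enrichment of 24.2 with the E-box 1.5 bp from a TSS, and the nucleoside diphosphate kinase NME1 had 23.6. Of the sugar metabolism genes, RPIA of the pentose phosphate pathway had 19.3 in a peak shared with EIF2AK3, PFKFB3 had 18.4 and HK2 had 17.6. Cholesterol synthesis had 4 of 24 (16.7%, interval 6.68% to 35.8%), with DHCR7 at 22.6, MVK at 21.7 and PMVK at 17.4. Polyamine synthesis had 2 of 16 (12.5%, interval 3.50% to 36.0%), the spermidine synthase SRM at 9.35 and DOHH, which modifies eIF5A, at 11.0.

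Protein folding and organelle lists are described here without regard to rank. Cytosolic chaperones had 10 of 46 (21.7%, interval 12.3% to 35.6%), led by HSP90AB1 with 22.6. Mitochondrial import had 7 of 49 (14.3%, interval 7.10% to 26.7%), with TIMM8A at 23.4, PHB1 at 22.4 and TOMM5 at 19.5. Oxidative phosphorylation had 8 of 76 (10.5%, interval 5.43% to 19.4%), with NDUFS1 at 30.8 (the peak shared with EEF1B2), NDUFV3 at 21.8 and ATP5PB at 16.5. Splicing factors had 9 of 93 (9.68%, interval 5.18% to 17.4%), led by SRSF6 with 15.3, although 72.04% of them had a MAX peak. Proteasome subunits had 3 of 49 (6.12%, interval 2.10% to 16.5%), namely PSMC4 (18.5), PSMB3 (17.8) and PSMB10 (6.35). Among genes with any MAX peak, members were 27.8% of chaperones, 20.0% of mitochondrial import genes and 20.5% of oxidative phosphorylation genes. They were 13.4% of splicing factors and 10.0% of proteasome subunits. The interval of each of these shares included the 18.7% of all coding genes with a MAX peak.

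Replication and cell cycle genes are given next, also without regard to rank. DNA replication had 11 of 56 (19.6%, interval 11.3% to 31.8%), with MCM8 at 25.8 in a peak shared with TRMT6, POLE4 at 17.3 and DNA2 at 16.4, and a median of 11.7. Cyclins, CDKs and cycle regulators had 7 of 52 (13.5%, interval 6.68% to 25.3%), with WEE1 at 39.6, CDK8 at 17.1 and CCND2 at 16.3. Of 5 proliferation targets of MYC that the study names, MCM2 and RFC4 were members. MCM2 had a fold enrichment of 12.8 (pileup 19) and RFC4, a subunit of the clamp loader, had 5.08 (pileup 16), above only 1.37% of MAX peaks, with its E-box 95.5 bp from the summit.
RFC4 (chr3:186524736-186524765): ccctcttgaggaCACGTGgcttttacttct

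The other 3 of the 5 were not members. NCL, which encodes nucleolin, had a MAX peak of 23.6 with 3 hexamers in the window, and CDK4 one of 13.8 with 1 hexamer, but both shared bases with a BMAL1 peak (BMAL1 fold enrichment 6.13 and 17.4). CDC25C, in a peak of 9.14 shared with FAM53C, had no CACGTG in the peak.

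**Figure D5:**
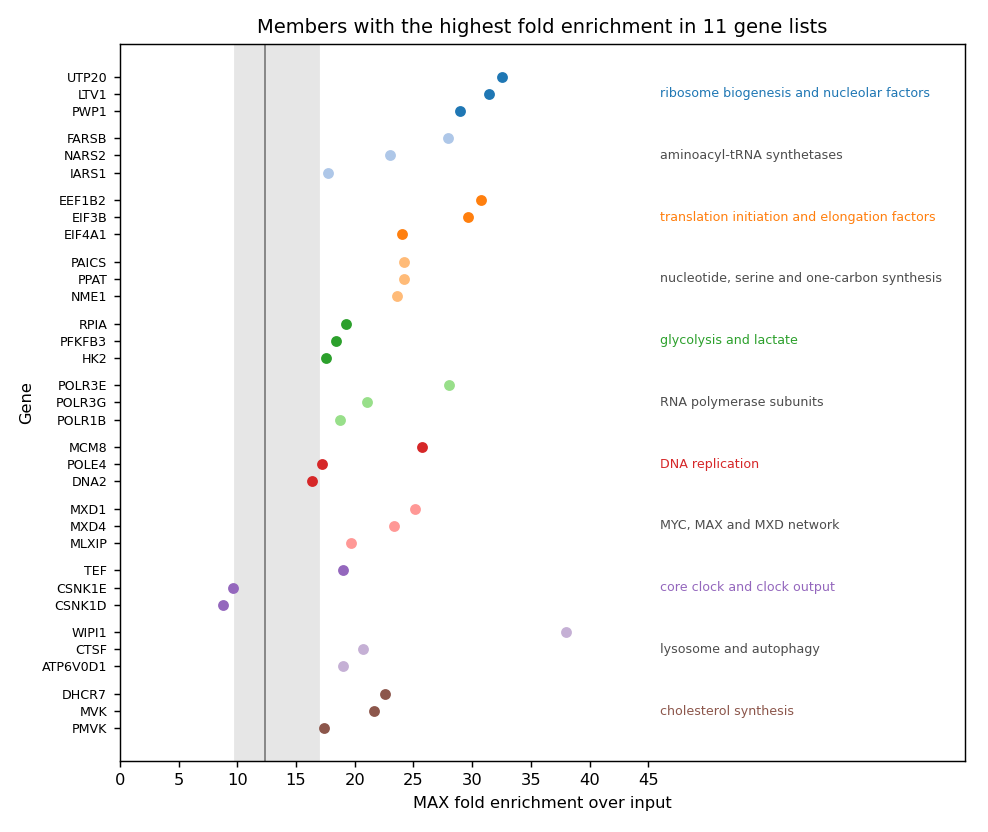
MAX fold enrichment over input at the members with the highest values (up to 3 genes) in 11 gene lists, in order of the lists. The grey band spans the quartiles of all members (9.78 to 16.9) and the line marks their median of 12.3. WIPI1 (38.0) and UTP20 (32.5) are the highest, and of the clock genes only TEF (19.0) lies above the band.

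The MAX network itself was among the members, although its list is small. Of 13 genes, 5 had a member (38.5%, interval 17.7% to 64.5%), and these encode the repressors MXD1 (25.1) and MXD4 (23.4), the glucose sensor MLXIP (19.7) and its partner MLX (8.63), and MAX (19.0). Members were 55.6% of the network genes with any MAX peak (interval 26.7% to 81.1%). T before the hexamer was found in 2 of the 5, MAX and MLX, and not in MXD1, MXD4 or MLXIP, and the MXD4 promoter is shown beside that of MXD1 above.
MXD4 (chr4:2264057-2264086): gcttagcaacagCACGTGgtggcccggccc
Of 12 USF and MiT genes and other E-box factors, 2 had a member, TCFL5 (13.1) and SREBF1 (10.2).

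Of 25 core clock and clock output genes, 4 had a member (16.0%, interval 6.403% to 34.7%), and 9 had a MAX peak at a TSS that shared bases with a BMAL1 peak, against 1.61% of all coding genes. TEF was in both groups, with a second MAX peak of 18.4 at another TSS that shared bases with a BMAL1 peak. The member at TEF, a PAR bZIP output factor of the clock, had a fold enrichment of 19.0 (pileup 30) with an E-box of the class CCACGTGC at -70.5 bp from the TSS. The casein kinase genes CSNK1E and CSNK1D, whose products phosphorylate PER proteins, had 9.67 and 8.76, and TIMELESS had 6.66. Members were 33.3% of the clock genes with any MAX peak (interval 13.8% to 60.9%). The nearest BMAL1 peak was 13072 bp from the TEF member and 40549 bp from that of CSNK1D.
TEF (chr22:41763252-41763281): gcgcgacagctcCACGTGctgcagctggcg

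Lysosome and autophagy genes had 15 of 86 (17.4%, interval 10.9% to 26.8%), and T before the hexamer was more frequent in them than in ribosome biogenesis genes, a comparison chosen after the values were seen. T before the nearest hexamer was found in 10 of the 15 (66.7%, interval 41.7% to 84.8%), in 7 of the 51 ribosome biogenesis genes (13.7%, interval 6.81% to 25.7%) and in 28.9% of all genes with a member. It was on both strands in 4 of the 15, and 2 of these are shown.
ATP6V0D1 (chr16:67515102-67515131): gcgcaagcgcctCACGTGaccataaggggg
VPS33A (chr12:122751017-122751046): cacggacgcagtCACGTGaccaaacgtcca
The fold enrichment was 19.0 at ATP6V0D1, a subunit of the proton pump that acidifies lysosomes, and 7.30 at VPS33A, a subunit of vesicle tethering complexes. The 5 without T before the hexamer were WIPI1 (38.0), CTSF (20.7), the autophagy receptor SQSTM1 (16.2), NAGLU (11.7) and ATG5 (5.71). T before the hexamer was also found in 6 of 9 splicing genes and 6 of 11 DNA replication genes with a member, MCM2 among them.

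Olfactory receptor genes, which epithelial cells do not use, gave a floor. None of 399 olfactory receptor genes had a member or any MAX peak, which allows a share of up to 0.752% at a limit of 3 counts (Wilson upper limit 0.954%). Of 55 keratin genes, 0 had a member and 2 had a MAX peak. The Wilson upper limit of 6.53% for keratin genes with a member includes the 6.33% of all coding genes.

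Few members had a BMAL1 peak nearby. The nearest BMAL1 peak lay a median of 726836 bp away, within 10 kb for 28 members (2.49%, interval 1.73% to 3.58%) and within 1 kb for 6. The share within 10 kb was 2.02% (interval 1.67% to 2.44%) at promoters without the E-box, 3.16% at distal E-boxes and 2.67% over all MAX peaks. The 6 members within 1 kb were USP36, 80 bp from a BMAL1 peak, EIF4A1 at 161 bp, PAICS / PPAT at 327 bp, AKT1S1 at 391 bp, MBTD1 at 544 bp and TFAP4 at 640 bp, and they were named after their values were seen. Their MAX fold enrichment ranged from 8.04 at AKT1S1 to 24.2 at PAICS / PPAT, and the BMAL1 fold enrichment of the neighbouring peaks from 6.69 to 14.4. At 14 of the 1271 genes with a member, another MAX peak at a TSS shared bases with a BMAL1 peak. Such a shared peak was found at 324 of all 20090 coding genes (1.61%).

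The limits of the rule passed through peaks of all levels. The farthest base of the E-box was 100 bp from the summit at EIF3B / SNX8 (29.6) and CASP9 / DNAJC16 (14.0), and it was 101 bp away, just outside, at ACTR3B (17.9), OSGEPL1 (17.2) and CEBPA (13.2). The peak edge was 299 bp from a coding TSS at CEP57 (7.11) and ABHD2 (8.57), and 301 bp at ANKRD28 (15.1) and 303 bp at RSAD1 (13.2), which were not members. Just outside the limit on BMAL1, TENT5B (10.1) shared 131 bp with a BMAL1 peak and TBC1D16 (8.93) shared 192 bp.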

How the data were processed

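The 1 MAX and 1 BMAL1 library were each compared with the same input. Per the labels and methods, the authors aligned reads to hg19 with BWA 0.6.2 and called peaks with MACS2 2.0.9. The deposited lists give the pileup signal at the summit, its fold enrichment ratio over the local background, and the −log10 p-value and q-value. A p-value limit of 1e-05 stands in their headers, with at most 1 (MAX) or 2 (BMAL1) tags per position, and the methods give 1e-08, so all listed peaks were used and the stricter cutoff was an alternative. Libraries were not scaled to each other, and depth and the duplicate limit differ between them.

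TSSs came from GENCODE release 44 mapped to GRCh37, and E-boxes from the GRCh37 sequence, read with pysam 0.24.0 (Python 3.11.15, pandas 2.3.3, scipy 1.17.1, matplotlib 3.10.9). Gene values are those of the strongest member at the gene. Shares carry Wilson 95% intervals and medians distribution-free 95% intervals. Both treat peaks as independent, and cover neither the error between cultures nor amplification. The counting steps were tested on simulated data. Named are the 10 members of highest fold enrichment, up to 3 per gene list, 5 MYC targets of the study, peaks at the limits of the rule and members with most E-boxes. Other genes were named after their values were seen. The members and lists were chosen with earlier results of these data known. Some results of these lists are not reported here.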

Additional observations from a re-analysis of the deposited data

How the results depend on the processing

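No paired analysis was possible because each antibody had 1 library, and no replicate could be left out. Of 116 values recomputed under alternatives, 81 stayed within the interval of the reported value or, for the number of members, within 1.5 times it, and 35 did not. The 35 include every median on pileup or −log10 p, which are in other units than the interval they were set against. They also include shares that the window size changes by construction. The values for the base before the hexamer and for ribosome biogenesis were added after seeing the data. The ratio of the median fold enrichment at members to that at promoters without the E-box was 1.24. It stayed between 1.17 and 1.27 in the alternatives that kept fold enrichment. The same ratio was 1.28 for pileup and 1.40 for −log10 p, the last being a ratio of logarithms. With p of 1e-08 or less, the median without the E-box was 10.2 (interval 10.1 to 10.2). With p of 1e-12 or less, the medians were 14.03 and 12, and 5.00% of genes had a member. With the summit within 300 bp of a TSS, 34.7% of E-boxes were downstream and 4.77% of genes had a member. With promoters of 1 kb, the medians were 11.98 and 9.68, and the shares 40.8% and 7.54%. Protein-coding transcripts alone gave 5.79% of genes, and canonical TSSs 4.82%, with 9.64% of members on both strands. E-boxes within 50 bp of the summit left 711 members, a median of 12.9, 3.52% with 2 or more E-boxes, 59.1% within 25 bp and 4.04% of genes. Within 200 bp these shares were 9.96%, 28.5% and 8.23%. The smaller and larger windows contain fewer and more positions by construction. On other measures the medians were 23 and 18 (pileup) and 17.6 and 12.5 (−log10 p), which are other units. The ratio without over with T before the hexamer was 1.21, and 1.18 to 1.33 over alternatives. The share of ribosome biogenesis genes with a member ranged from 27.8% to 47.4% with the window. The depth limits the absence of BMAL1 to peaks past its threshold.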
